A study of Mus musculus with 2 samples.

Results

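The miR-130/miR-301 family was followed through the miRNA profiles of mouse liver RNA on 2 arrays, 1 for mice lacking Hnf4a in the liver and 1 for floxed controls. Its members were selected by accession, with earlier results of these data in view, as the features MIMAT0000141 (miR-130a-3p), MIMAT0000387 (miR-130b-3p) and MIMAT0000379 (miR-301a-3p), which are 3 of the 610 features in the deposited table. The liver-null group, Hnf4aΔH, and its floxed control, Hnf4af/f, were each represented by 1 array of liver RNA from male mice aged 45 days on a mixed 129SV and C57BL/6 background. Hnf4af/f mice carry the floxed Hnf4a allele undeleted, and Hnf4aΔH mice are described as null for the gene in the liver alone. The sources used here give neither the Cre driver behind the deletion nor the number of animals behind an array. With 1 array per group, all values below are single measurements with no replicate error, and no test between the groups was possible.

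MicroRNAs are short RNAs that guide Argonaute proteins to messenger RNAs, mainly by pairing of the seed (bases 2 to 8 from the 5′ end) with a complementary site, and so lower the output of the targeted messenger. miRNAs with the same seed form a family because they can bind the same sites. HNF4a, the gene product removed in the liver-null mice, is a nuclear receptor that maintains the gene expression of hepatocytes. Work in human cells has tied miR-130 to repression of PPARG in fat cell precursors, miR-130a to repression of the homeobox genes GAX and HOXA5 in endothelium, and miR-301a to repression of NKRF, an inhibitor of NF-kappaB, in pancreatic cancer cells. In mouse liver, miR-130a-3p is known to affect insulin sensitivity through Grb10, an adaptor that restrains insulin receptor signalling.

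The mature sequences are shown because the shared seed is what places these 3 miRNAs in 1 family. They are the RefSeq sequences (GRCm38.p6), matched by name for all 3 members, and the seed is in capitals.
miR-130a-3p: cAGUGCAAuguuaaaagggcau
miR-130b-3p: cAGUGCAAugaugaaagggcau
miR-301a-3p: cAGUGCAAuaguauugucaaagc
The seed AGUGCAA pairs with the site UUGCACU in a messenger. In the RefSeq table, 7 of 1679 mature mouse miRNA names (0.417%) had this seed, among them the 3 members, and the other 4 were miR-130c, miR-721, miR-6341 and miR-6389. This counts names in that table, which is not a full list of the family: miR-301b-3p is also generally placed in it. Whether the array has features for those 4 was not established, because no other accession is paired with a name in the sources used here. Counted from 1 at the 5′ end, miR-130a-3p and miR-130b-3p were identical at 20 of 22 bases and differed by U11A and A13G. miR-301a-3p matched miR-130a-3p at 12 of the first 22 bases, and these 2 shared their first 9 bases without a break. miR-130b-3p and miR-301a-3p were identical at 11 of the first 22 bases. The members thus have a common 5′ part, and miR-301a-3p has a different 3′ part. GC content was 40.9% in miR-130a-3p, 45.5% in miR-130b-3p and 39.1% in miR-301a-3p.

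All 3 miRNAs come from the 3′ arm of their hairpins, which lie on different chromosomes. The hairpins are shown to place each measured arm, which is in capitals.
Mir130a: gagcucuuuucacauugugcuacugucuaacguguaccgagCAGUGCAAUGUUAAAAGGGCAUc
Mir130b: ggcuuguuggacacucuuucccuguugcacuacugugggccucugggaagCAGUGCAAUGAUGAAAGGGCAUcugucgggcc
Mir301: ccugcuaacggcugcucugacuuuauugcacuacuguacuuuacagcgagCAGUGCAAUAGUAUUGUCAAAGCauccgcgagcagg
In GRCm38.p6, Mir130a lies at chr2:84741115-84741178 on the minus strand. It is inside no other gene of the RefSeq gene table, with the protein-coding gene Ypel4 ending 2459 bases before it and the long non-coding RNA gene Gm19426 starting 986 bases after it in coordinate order. Mir130b lies at chr16:17124061-17124142 on the minus strand, inside the span of the protein-coding gene 2610318N02Rik on the same strand. Mir301b, the gene of miR-301b, lies 257 bases away from it. Mir301, which gives miR-301a, lies at chr11:87113004-87113089 on the plus strand, inside the span of Ska2, a gene for a spindle and kinetochore protein on the same strand. The gene table gives spans without exons, so exonic and intronic positions were not read. The messengers of these genes were not measured on the arrays analysed here.

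A value was given for every member on both arrays, so none (0) was missing. The Hnf4aΔH array had values for 340 features and the Hnf4af/f array for 299, with 258 on both. The lowest value given was 1.02 on the Hnf4aΔH array and 1.45 on the Hnf4af/f array, and the medians of the listed values were 3.20 and 4.33 in the same order. Differences are liver-null minus control on the scale log2(intensity + 1), which understates the change of dim features. A difference of 1 on this scale is called 2-fold. Over the 258 shared features, 17 (6.59%) were higher by 2-fold or more in Hnf4aΔH liver and 14 (5.43%) were lower by as much. This split was 9 higher and 20 lower after median centring, and 10 and 15 after loess centring, which takes off the trend of the difference with mean level. The median log2 level of these features was higher by 0.15 in Hnf4aΔH liver, a shift taken off in a second value for each member below, although the median of the individual differences was -0.06. Probes differ in how brightly they report a given amount of miRNA, so ranks within an array describe signal and do not order the members by abundance.

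The 3 members differed in direction between the 2 arrays. The miR-130a-3p signal was lower in Hnf4aΔH liver, the miR-301a-3p signal was higher there, and the miR-130b-3p signal was dim and nearly equal in both. Of the 3 members, 1 was thus higher by 2-fold or more and 1 was lower by as much, beside the 6.59% and 5.43% of shared features past 2-fold in those directions. The median difference of the 3 members was 0.05, which is that of miR-130b-3p. Since the members were chosen with these values known, the counts are a description and nothing is read from them about the family as a whole.

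**Figure D1:**
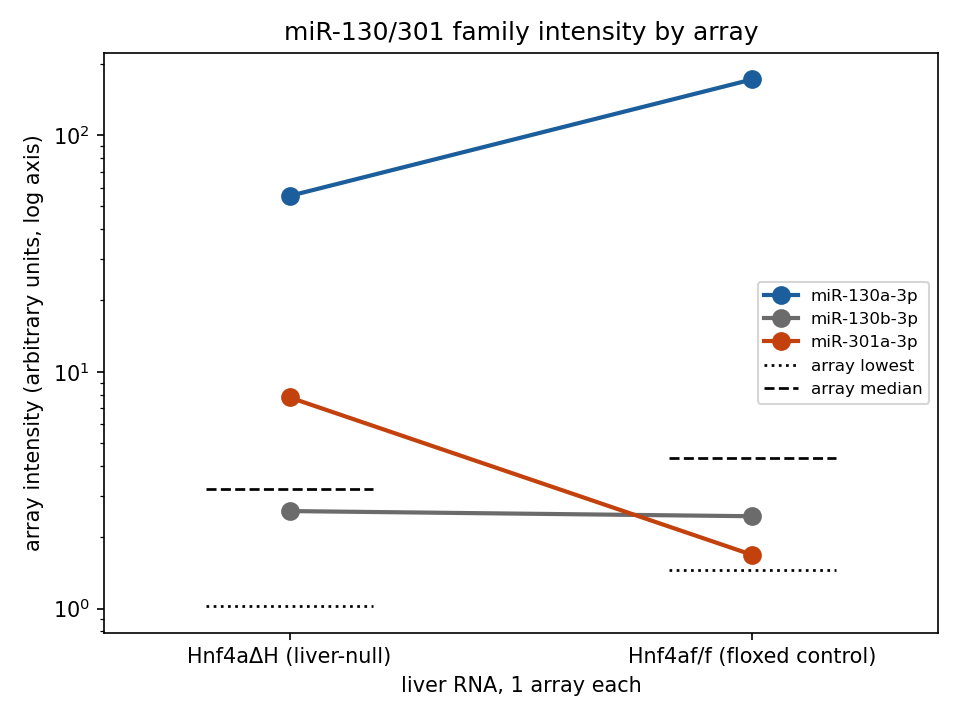
Intensity of the 3 members (log axis, arbitrary units) on the Hnf4aΔH array, left, and the Hnf4af/f array, right, with each array's lowest value (dotted) and median (dashed). Each point is 1 feature on 1 array; miR-130a-3p lies far above both medians, while miR-301a-3p lies above the median only on the Hnf4aΔH array.

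miR-130a-3p gave the brightest signal of the 3 features on both arrays. Its intensity was 55.3 in Hnf4aΔH liver and 172 in Hnf4af/f liver. The log2 difference was thus -1.62, and -1.77 once the median shift was taken off, and the control intensity was 3.11 times the liver-null one. Its signal stayed well inside the measured range on both arrays, at 54.0 times the lowest value given on the Hnf4aΔH array and 118 times that on the Hnf4af/f array. It ranked 50 of 340 on the Hnf4aΔH array and 29 of 299 on the Hnf4af/f array, 21 places further down in Hnf4aΔH liver. Its share of the summed intensity was 0.195% in Hnf4aΔH liver and 0.596% in Hnf4af/f liver.

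The miR-130a-3p difference was the 8th lowest of the 258. By mean level it ranked 38 and lay in the brightest quartile, where 8 of 65 features (12.3%) were lower by 2-fold or more in Hnf4aΔH liver. Within that quartile it was the 6th lowest, between a feature at -1.64 and one at -1.32. In whole-liver RNA, fewer cells of a type and less RNA per cell cannot be told apart, and this holds for each value given here.

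miR-301a-3p had a difference of the opposite sign and a dim control signal. Its intensity was 7.79 in Hnf4aΔH liver and 1.68 in Hnf4af/f liver. The log2 difference was 1.71, and 1.56 once the median shift was taken off, and the ratio of the intensities was 4.63. The control value lay close to the lower end of that array, at 1.16 times the lowest value given, with 30 of 299 features dimmer. The liver-null value was 7.62 times the lowest value and 2.44 times the median of its array. Its rank was 117 of 340 on the Hnf4aΔH array and 269 of 299 on the Hnf4af/f array, a move of 152 places.

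Of all 258 differences, that of miR-301a-3p was the 2nd highest. By mean level it ranked 156, in the second dimmest quartile, where 4 of 64 features (6.25%) were at least 2-fold higher, and it was the highest of those, with the next at 1.46. A total of 31 features had a control value at or below that of miR-301a-3p, and 15 of them also had a liver-null value. The other 14 of these ran from 1.05 to 2.87 on the Hnf4aΔH array, with a median of 1.36, and 0 of them were at least 2-fold higher. These features were picked for their dim control values, so this is a description only. The size of the miR-301a-3p difference depended on the pseudocount, because the control value is close to the pseudocount itself. It was 2.21 with no pseudocount and 0.43 with a pseudocount of 16, which is below 2-fold.

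miR-130b-3p had an intensity of 2.58 in Hnf4aΔH liver and 2.45 in Hnf4af/f liver. The log2 difference was 0.05, and once the median shift was taken off it was -0.10, so its sign depended on the scaling. Both values lay below the median of their array, at 0.81 times the liver-null median and 0.57 times the control median. It ranked 198 of 340 on the Hnf4aΔH array and 211 of 299 on the Hnf4af/f array. Without further scaling, 20 of the 258 shared features (7.75%), miR-130b-3p itself included, differed by as little or less. It lay in the dimmest quartile by mean level, where 63 of 65 features were within 2-fold. The pseudocount and the lowest values given leave such dim features little room to reach 2-fold, so this count does not show them to be unchanged. Differences in this quartile ran from -0.36 at the 25th percentile to -0.03 at the 75th, with a median of -0.23. The 0.05 of miR-130b-3p lay above that range. At this signal a small difference in the miRNA may not have been detectable. A 2-fold fall on this scale could not have been measured in full, since it would have ended below 1.02, the lowest value given on the Hnf4aΔH array. The value given there, 2.58, was not below the control value of 2.45.

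**Figure D2:**
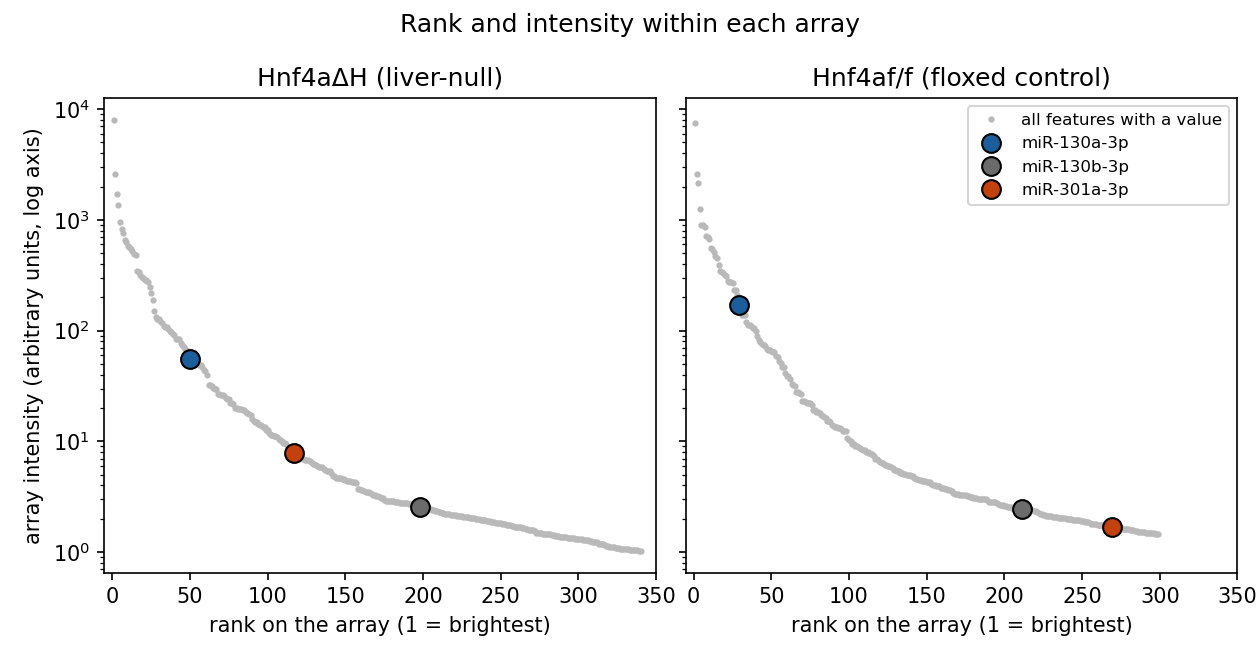
Intensity (log axis, arbitrary units) against rank for every feature with a value on the Hnf4aΔH array, left, and the Hnf4af/f array, right, where rank 1 is the brightest. The members are marked: miR-301a-3p stands at rank 117 on the Hnf4aΔH array and 269 on the Hnf4af/f array, and miR-130a-3p at 50 and 29 in the same order.

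The features of miR-130a-3p and miR-130b-3p gave unlike signals although the miRNAs differ at 2 of 22 bases. Where miR-130a-3p had 55.3 in Hnf4aΔH and 172 in Hnf4af/f liver, miR-130b-3p had 2.58 and 2.45. The miR-130b-3p signal did not fall: its Hnf4aΔH value was 2.52 times the lowest value given on that array, with 142 of 340 features dimmer. A fall as large as that of miR-130a-3p, from 2.45, would have ended below 1.02, the lowest value given there. The size of such a fall could thus not have been measured. Whether the miRNA behind so dim a signal changed was not tested. The probe sequences were not used here, and how far each probe binds the other family members was not tested.

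**Figure D3:**
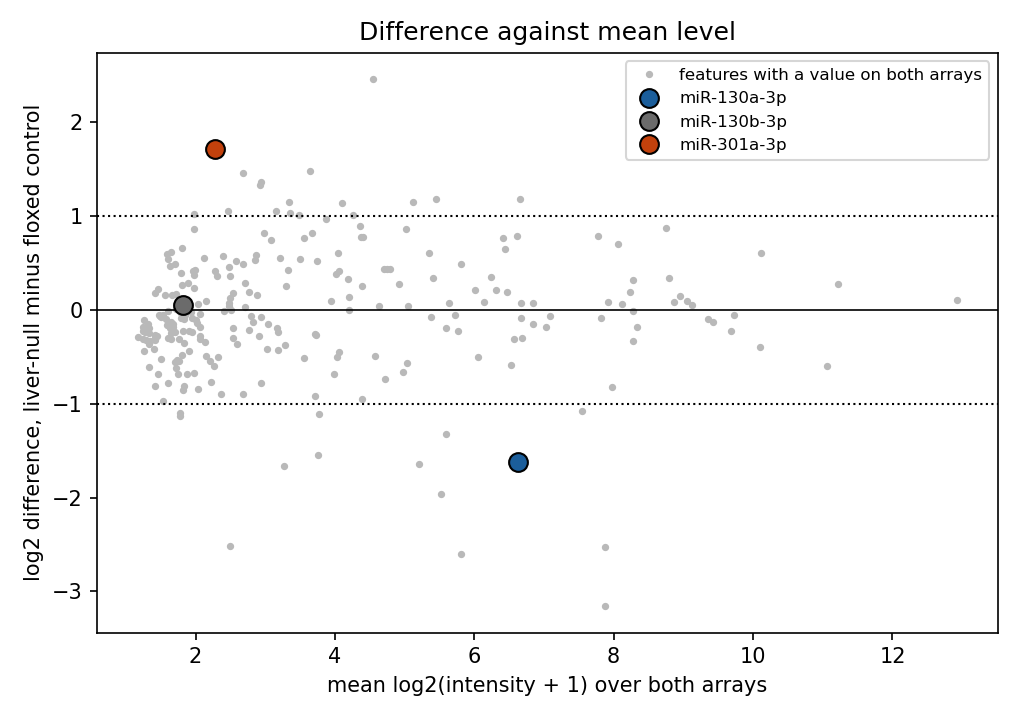
Log2 difference, liver-null minus floxed control, against the mean log2(intensity + 1) of both arrays for the 258 shared features, with 2-fold marked by dotted lines. miR-130a-3p lies at -1.62 among the bright features, miR-301a-3p at 1.71 and miR-130b-3p at 0.05 among the dim ones.

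The contrast between miR-301a-3p and miR-130a-3p, taken as the difference of their log2 differences, was 3.33. Centring of the arrays, by median or by 75th percentile, cannot change it. It was 3.02 with quantile normalization, 3.44 after loess centring, 1.83 using a pseudocount of 16 and 3.85 using none. miR-130a-3p was at least 2-fold lower in all 8 settings of scaling and pseudocount, with differences from -1.77 to -1.28. miR-301a-3p was at least 2-fold higher in 7 of the 8, the exception being the pseudocount of 16. miR-130b-3p stayed between -0.10 and 0.20. These settings reprocess the same 2 arrays, so they say nothing about how the differences would repeat in other mice.

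**Figure D4:**
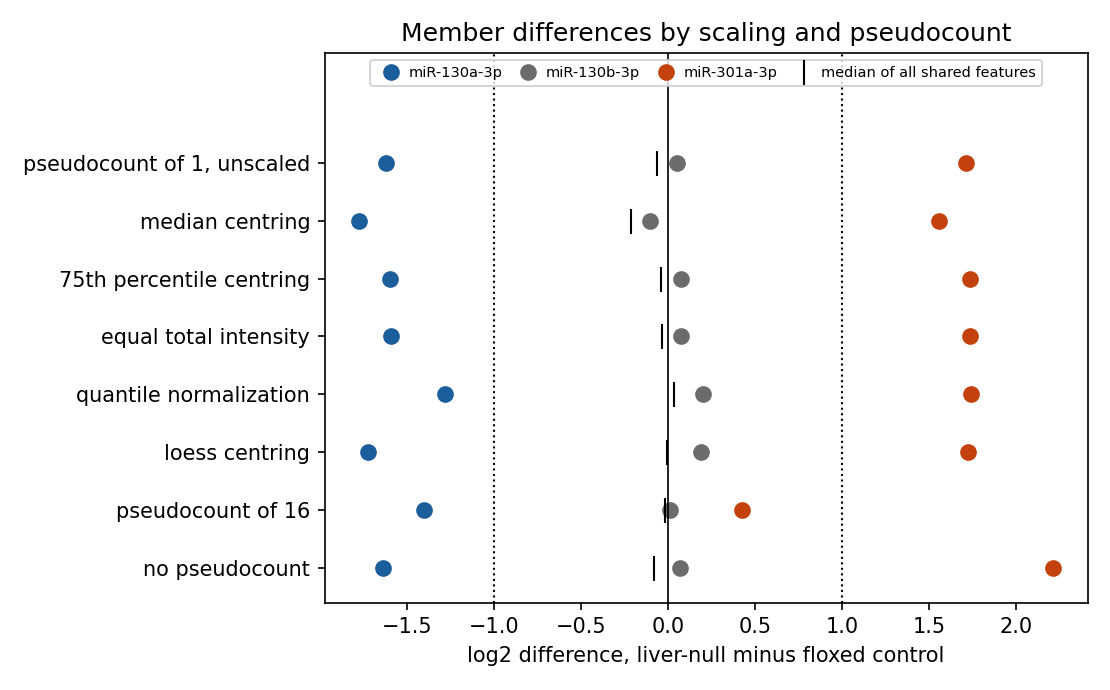
Log2 difference, liver-null minus floxed control, of each member under 8 settings of scaling and pseudocount, with the median of all 258 shared features as a black tick and 2-fold as dotted lines. miR-130a-3p stays left of the lower line, miR-301a-3p lies inside the upper line with a pseudocount of 16 alone, and miR-130b-3p stays near 0.

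Features with levels like those of each member were sought by Euclidean distance between log2(intensity + 1) levels over the 2 arrays. For miR-130a-3p the nearest feature lay at a distance of 0.74, with intensities of 74.7 in Hnf4aΔH liver and 112 in the control, and its difference was -0.58. None of its 3 nearest features was at least 2-fold lower, the differences of the other two being -0.31 and -0.30. The 3 nearest to miR-301a-3p lay at 0.54 to 0.65, and all had a difference past 2-fold, at 1.06, 1.46 and 1.02. The 3 nearest to miR-130b-3p lay at 0.07 to 0.09, with differences from -0.05 to 0.04. With 2 points per feature, this likeness says only that the levels on these arrays were close. It does not pick out the features with a like difference.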

How the data were processed

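Liver RNA was labelled with the dye Hy5 for a 1-channel miRNA array, per the labels' protocols. The authors deposited 1 table of processed intensity values on a linear scale. The sources used here name no scanner, background correction, filter on dim spots or scaling, and do not say what a missing value means. Missing values were not replaced. Intensities were converted to log2(intensity + 1) without further scaling, and differences are liver-null minus control. With 1 array per group no test was made, and precision is limited by the number of arrays.

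The members and lists were chosen with earlier results of these data known. The 3 members were named from the rule that selects them. The reference tables pair none (0) of the accessions with a name, so the planned lists of offset seeds, other arms, hairpin neighbours and cell type markers were not applied, and the liver label was not checked against marker miRNAs. Nearest features were limited to those with 1 accession and are given without names. Hnf4a messenger RNA was not analysed here.

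Alternatives were centring on the median or the 75th percentile, equal total intensity, quantile normalization, loess centring (span 0.4), pseudocounts of 0 and 16, keeping only features at or above the median mean level, and calling at 1.5-fold or 4-fold. The counting code was tested on simulated data. Tables were handled in Python 3.11.15 with numpy 2.4.6 and pandas 2.3.3, loess came from statsmodels 0.14.6, and plots were drawn with matplotlib 3.10.9.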

Additional observations from a re-analysis of the deposited data

How the results depend on the processing

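No paired analysis was possible because there is a single array of each genotype, which also leaves no replicate to omit. With no spread between replicates to set a change against, every recomputed member difference is given. For miR-130a-3p the log2 difference was -1.77 with median centring, -1.60 with 75th percentile centring, -1.59 with equal total intensity, -1.28 with quantile normalization, -1.72 after loess centring, -1.40 using a pseudocount of 16 and -1.64 using none. In the same order miR-301a-3p stood at 1.56, 1.74, 1.73, 1.74, 1.72, 0.43 and 2.21, and miR-130b-3p, whose value is also the median of the 3 members in each setting, at -0.10, 0.075, 0.073, 0.20, 0.19, 0.0098 and 0.072. The contrast of miR-301a-3p with miR-130a-3p was added after seeing the data. It ranged from 1.83 to 3.85. The main counts over all shared features were 17 higher by 2-fold or more in Hnf4aΔH liver and 14 lower, a share of 54.8% higher. They were 9 and 20 with median centring (31.0% higher), 10 and 15 after loess centring (40%), 2 and 7 using a pseudocount of 16 (22.2%) and 19 and 24 with no pseudocount (44.2%). At 1.5-fold they were 39 and 38 (50.6%), and at 4-fold 1 and 4 (20%). The other 4 settings gave 13 to 17 higher and 11 to 15 lower. A larger pseudocount brings dim features nearer to 0 by construction. Signal limits the folds of miR-301a-3p, dim in Hnf4af/f liver, and of miR-130b-3p, dim in both.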
